A study of Homo sapiens with 6 samples.

Results

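The genes described here are a set of 9 that cut or protect the extracellular matrix: 5 matrix metalloproteinases (*MMP2*, *MMP7*, *MMP9*, *MMP14* and *MMP15*), 2 of their tissue inhibitors (*TIMP1* and *TIMP2*), the urokinase protease *PLAU* and its receptor *PLAUR*. They were taken from a count table of 20381 genes by matching the gene symbol, and all 9 were found. The table came from RNA-seq of HCCLM3, an established human hepatocellular carcinoma line with little *PON1* of its own. The study asked how *PON1*, which encodes the lipid-associated esterase paraoxonase 1, acts on hepatoma cells, and cell invasion through a matrix gel was among its assays.

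The 3 PON1-OE libraries came from HCCLM3 cells carrying the full-length *PON1* coding sequence on a lentivirus, and the 3 NC libraries from HCCLM3 cells carrying the control lentivirus, which the series describes as an empty vector. Both groups were selected with puromycin, so integration of a vector and the drug are shared by treated and control cells. The sources differ on the serum content of the medium, and on whether RNA was taken a fixed time after transfection or from stable lines. Whether each line was a pool or 1 clone, and whether the replicates were separate infections, cultures or RNA samples, is not given in the sources used here, so every p-value measures the spread between these libraries only.

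*PON1* had 0, 2 and 3 counts in NC replicates 1, 2 and 3, and 155, 181 and 167 counts in the PON1-OE replicates. Totals were 15706672 to 17948383 counts per library, and every NC total was above every PON1-OE total. *HNF4A*, a transcription factor of the hepatocyte lineage, was present at a mean of 78.6 CPM (counts scaled to a common library size by TMM) in NC against 80.2 CPM in PON1-OE, whereas *ALB*, which encodes albumin, had only 4 to 13 counts per library. Of 12 hepatocyte and hepatoma markers, 9 were tested with edgeR as described below. In PON1-OE 4 were higher and 5 lower, and none passed an adjusted p under 0.05. *APOB*, which was lower, was the one with an unadjusted p under 0.05, as 11.1% of all genes tested had. *APOA1*, *TTR* and *SERPINA1* had too few counts to be tested. Of 9 fibroblast and stellate cell markers, 5 had no more than 3 counts in any library and *PDGFRA* and *THY1* were at 0. *DCN* and *LUM* had enough counts to be tested. The list summed to 16.0 to 21.0 CPM over the NC libraries and 16.7 to 20.2 CPM over the PON1-OE libraries. Of 9 leukocyte markers, 6 had no more than 3 counts in any library, and *PTPRC*, *LYZ*, *CD3E*, *MS4A1* and *FCGR3A* were at 0. The summed level of the leukocyte list, nearly all of it *CD68*, was 207 to 227 CPM over the NC libraries and 225 to 248 CPM over the PON1-OE libraries. The 6 endothelial markers, whose level came nearly all from *PECAM1* and *KDR*, with *EMCN* at 0 and *CDH5* at no more than 1 count, summed to 22.1 to 24.8 CPM over the NC libraries and 25.3 to 28.0 CPM over the PON1-OE libraries.

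As background, matrix metalloproteinases are zinc-dependent enzymes made as inactive precursors, which are secreted or, for *MMP14* and *MMP15*, anchored in the cell membrane. TIMP proteins bind their active sites, and TIMP2 also takes part with MMP14 in the activation of pro-MMP2. Urokinase, held at the cell surface by its receptor, converts plasminogen to plasmin, which degrades fibrin and matrix and can activate some metalloproteinase precursors. Activity is therefore set after transcription as well, and the values here are transcript levels alone.

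Before the values, the upstream sequences of 3 genes are given, because they hold the same motif. *PLAUR* and *ANXA2* passed the test described below and *MMP7* did not. A difference in response between these genes was not tested. *ANXA2*, which is not a member, was taken because it passed. The sequences are the 250 bases before the gene start on the gene's strand, 5′ to 3′, from RefSeq on GRCh38.p14. Promoters were found for 6 of the 9 members (*MMP7*, *MMP14*, *MMP15*, *TIMP1*, *PLAU* and *PLAUR*) and for *ANXA2*. Capitals mark the AP-1 motif, TGACTCA or its reverse complement TGAGTCA. The windows are chr19:43670170-43670419 for *PLAUR*, chr11:102530748-102530997 for *MMP7* and chr15:60397987-60398236 for *ANXA2*, all on the minus strand.
PLAUR: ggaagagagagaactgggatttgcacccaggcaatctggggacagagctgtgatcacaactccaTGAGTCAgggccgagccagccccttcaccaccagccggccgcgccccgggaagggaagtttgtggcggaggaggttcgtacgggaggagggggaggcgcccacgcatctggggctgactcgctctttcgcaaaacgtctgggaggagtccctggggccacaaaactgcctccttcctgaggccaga
MMP7: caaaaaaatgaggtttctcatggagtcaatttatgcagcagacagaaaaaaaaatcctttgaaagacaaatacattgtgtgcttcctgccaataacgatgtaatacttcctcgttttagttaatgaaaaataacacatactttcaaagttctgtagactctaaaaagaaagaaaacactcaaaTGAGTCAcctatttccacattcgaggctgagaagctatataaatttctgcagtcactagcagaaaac
ANXA2: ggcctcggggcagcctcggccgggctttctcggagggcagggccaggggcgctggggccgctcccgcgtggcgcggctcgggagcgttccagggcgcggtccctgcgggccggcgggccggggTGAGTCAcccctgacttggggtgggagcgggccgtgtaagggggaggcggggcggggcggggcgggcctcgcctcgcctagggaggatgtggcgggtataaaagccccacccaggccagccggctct

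The motif began at position -186 from the gene start in *PLAUR*, at -67 in *MMP7* and at -127 in *ANXA2*. In windows from 250 bases before to 50 bases after the start, 4.95% of 35116 RefSeq promoters held it on either strand. The TATA motif, TATAAA or TTTATA, was in 11.5% of promoters and stood at -30 in *MMP7* and at -31 in *ANXA2*. The GC box, GGGCGG or CCGCCC, was in 45.0% of promoters, with 5 matches in *MMP15*, 3 in *ANXA2*, 2 in *TIMP1* and 1 in *MMP14*. The *PLAU* window held none of the 3 motifs. The RefSeq start lies downstream of the outermost start of the gene in GENCODE v29 in every case, with the largest shifts, in bases and signed from RefSeq to GENCODE, of -4897 for *ANXA2*, -1433 for *PLAU* and -378 for *PLAUR*, so other annotated starts have other windows. These matches describe letters in a window and were read from the reference, not from the cells.

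The members spanned a wide range of levels. Because long genes collect more reads, levels of different genes were compared as CPM divided by the length of all merged exons in kb, over the 6 libraries. *TIMP2* was the highest, at 134 ± 3.0 CPM per kb (SD, n = 6), followed by *TIMP1* at 93.2 ± 5.44 CPM per kb. Both inhibitors therefore lay above every protease of the set in every library. *PLAU* reached 29.04 ± 2.51 CPM per kb, *MMP7*, which encodes the small secreted protease matrilysin, 26.1 ± 1.37 CPM per kb, and *PLAUR* 15.6 ± 2.13 CPM per kb. *MMP14* at 4.02 ± 0.223 CPM per kb and *MMP15* at 3.99 ± 0.183 CPM per kb, the membrane-anchored proteases, came next.

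The gelatinases were at the bottom of the order. *MMP2* had 8, 6 and 7 counts in the NC replicates and 7, 7 and 6 counts in the PON1-OE replicates, or 0.0836 ± 0.0105 CPM per kb (n = 6). *MMP9* had 0 counts in all 6 libraries, and the limit that a count of 0 allows, 3 counts, was 0.166 to 0.192 CPM per library, for counting error only, which holds if the authors' counting covered the gene. Per length that limit was 0.0710 to 0.0820 CPM per kb, within the range of *MMP2*, so the order of *MMP2* and *MMP9* is not resolved. Among the other neighbours the 6 libraries overlapped between *PLAU* and *MMP7* and between *MMP14* and *MMP15*. With the longest annotated transcript in place of merged exons, *MMP7* (45.9 CPM per kb) and *PLAUR* (43.2 CPM per kb) moved above *PLAU* (32.2 CPM per kb), and the other 6 genes kept their places.

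**Figure D1:**
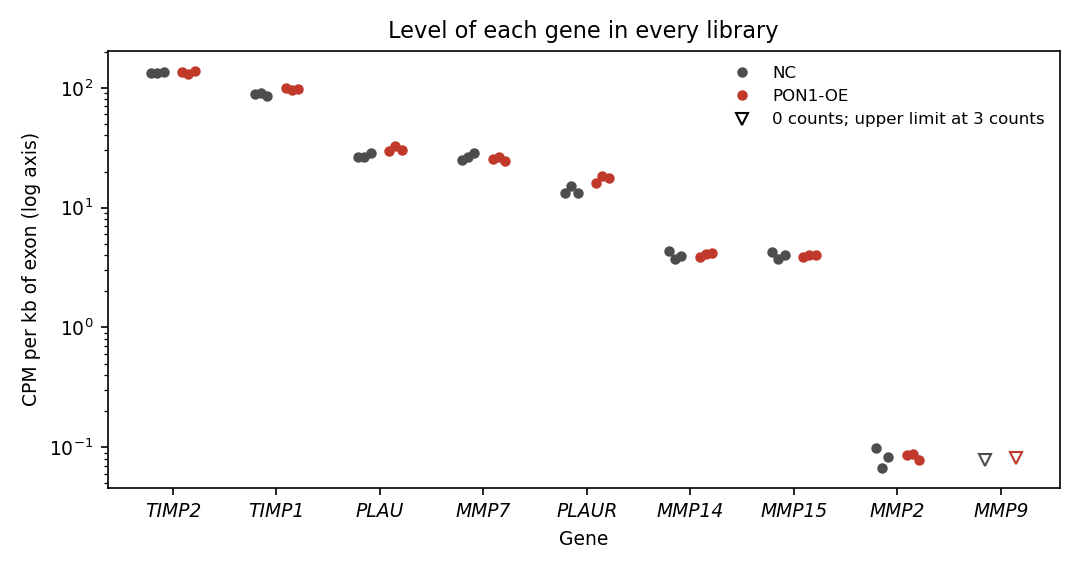
Level of each gene in CPM per kb of merged exon (log axis) in the 3 NC and 3 PON1-OE libraries, 1 point per library, with open triangles for the upper limit of *MMP9* at 3 counts. *TIMP2* and *TIMP1* lie above all other genes, *MMP2* stays under 0.1 CPM per kb, and the PON1-OE points lie above the NC points for *TIMP1*, *PLAU* and *PLAUR*.

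For the comparison of PON1-OE with NC, 7 of the 9 members had enough counts to be tested, and *MMP2* and *MMP9* did not. With edgeR's quasi-likelihood test, 1 of the 7, *PLAUR*, passed an adjusted p under 0.05 (Benjamini-Hochberg over all 11958 genes tested), where 0.677% of all genes tested did and 0.502% did with a higher level in PON1-OE. At an unadjusted p under 0.05 there were 3, *PLAUR*, *PLAU* and *TIMP1*, all higher in PON1-OE, against 11.1% of all genes in either direction and 5.91% higher in PON1-OE. For the same 3 genes the groups were separate, with all PON1-OE libraries on the higher side, which was so for 8.32% of all genes tested (16.1% with either group above). No member passed both the adjusted p and the fold of 1.5 that the study set, a mark reached by 0.0502% of genes. The median log2 fold change (log2FC) was 0.021 over the 7 members and -0.0025 over all genes tested. In RNA from whole cultures, fewer cells of a type and less RNA per cell cannot be told apart.

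**Figure D2:**
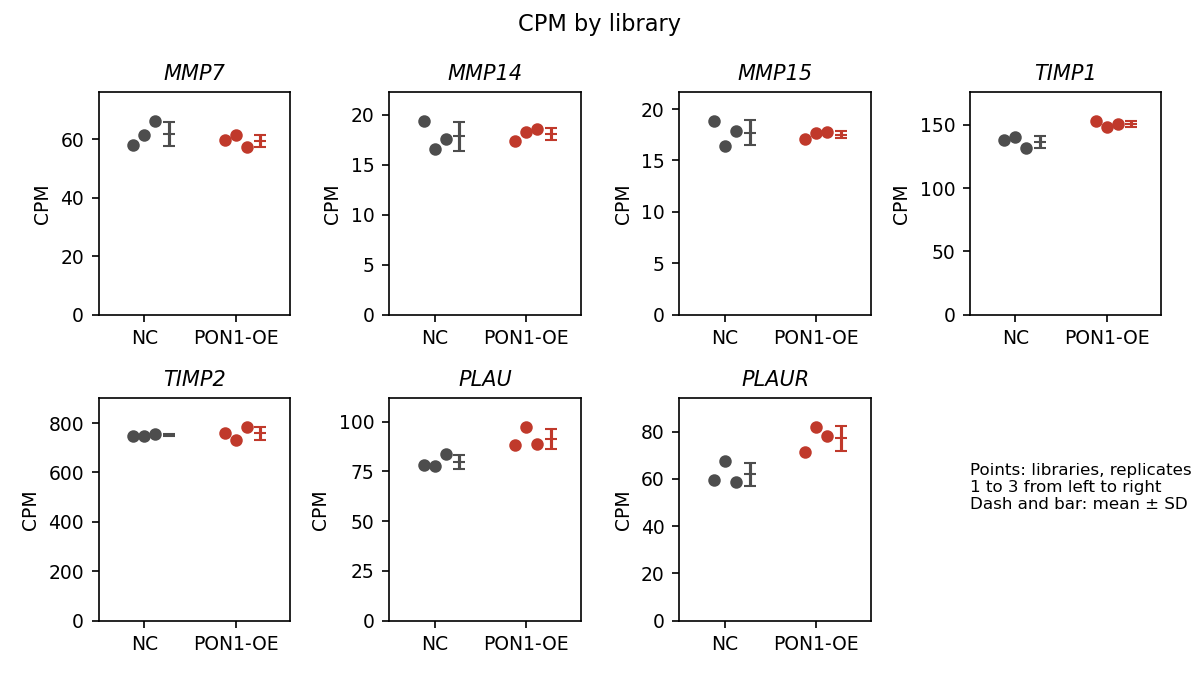
CPM of the 7 tested genes by library, with axes from 0, points for libraries and a dash with a bar for the mean ± SD (n = 3 per group). The PON1-OE points lie above all NC points for *TIMP1*, *PLAU* and *PLAUR*, and the groups overlap for *MMP7*, *MMP14*, *MMP15* and *TIMP2*.

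*PLAUR*, the urokinase receptor, rose in PON1-OE cells. Its level was 59.6, 67.4 and 58.8 CPM in NC replicates 1, 2 and 3, from 984, 1220 and 1003 counts, and 71.5, 81.9 and 78.3 CPM in the PON1-OE replicates, from 1174, 1310 and 1226 counts. The groups did not overlap, the lowest PON1-OE library being above the highest NC library. Mean CPM was 61.95 ± 4.77 for NC against 77.2 ± 5.30 for PON1-OE (SD over 3 libraries), a rise of 24.5% (95% interval 13.7% to 36.4%). The log2FC was 0.32 with an SE of 0.063, and edgeR gave an adjusted p of 0.0203. The exact two-sided permutation test of 3 against 3 libraries gave p = 0.1, the smallest it can give. The call depended on single libraries: edgeR's adjusted p was 0.122 and 0.194 with NC replicate 1 or 3 left out, 0.0657 and 0.113 with PON1-OE replicate 2 or 3 left out, while the log2FC ran from 0.27 to 0.38. Leukocytes and endothelial cells also express *PLAUR*. In these HCCLM3 cultures the leukocyte marker sum was nearly all *CD68* and the endothelial sum nearly all *PECAM1* and *KDR*. The summed endothelial markers did not overlap between the groups, the leukocyte sum did, and their part in this result was not tested. Groups did not overlap for 16.1% of all single genes tested, and that share was not computed for sums. At an unadjusted edgeR p under 0.05, *CD68* was higher in PON1-OE, while neither *PECAM1* nor *KDR* reached that mark.

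*PLAU*, which encodes urokinase itself, had 78.1, 77.7 and 83.9 CPM in the NC replicates and 88.3, 97.3 and 88.7 CPM in the PON1-OE replicates. The groups did not overlap here either. The means were 79.9 ± 3.47 and 91.4 ± 5.08 CPM (n = 3 each), a difference of 14.4% (95% interval 5.93% to 23.6%). The log2FC of 0.19 (SE 0.053) had an unadjusted p of 0.00157 and an adjusted p of 0.123 by edgeR, so that it did not pass. Without the filter on low counts the edgeR adjusted p was 0.0441, and this was the only alternative under which *PLAU* passed. The adjusted p was 0.0827 with DESeq2, 0.133 with limma-voom and 0.211 by edgeR with the replicate block. With NC replicate 1 left out it was 0.403 by edgeR. *PLAU* shares 916 exonic bases with *C10orf55* on the opposite strand, and the counting is not stated to use strand, so reads from the shared bases cannot be told apart.

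The ratio of receptor to ligand transcripts, both per length of merged exons, was 0.514 ± 0.0558 in NC and 0.559 ± 0.0240 in PON1-OE (n = 3 each). The groups overlapped. The level of this ratio depends on the length used. With the longest annotated transcript as length, *PLAUR* was at 43.2 CPM per kb and *PLAU* at 32.2 CPM per kb, the reverse order. Which of the transcripts was the more abundant is therefore not resolved. The same lengths apply to NC and PON1-OE, so the overlap of the groups does not depend on them.

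*TIMP1*, a secreted inhibitor of most metalloproteinases, was at 138, 140 and 131 CPM in the NC replicates and at 153, 148 and 150 CPM in the PON1-OE replicates. The lowest PON1-OE library lay above the highest NC library. The difference was 10.3% (95% interval 3.73% to 17.3%), with a log2FC of 0.14 (SE 0.043), an unadjusted p of 0.00329 and an adjusted p of 0.172 by edgeR, and it did not pass. *TIMP2* was at 748, 748 and 757 CPM in NC and at 759, 733 and 784 CPM in PON1-OE, with the PON1-OE libraries on both sides of the NC libraries. Its log2FC was 0.015 (SE 0.034, edgeR adjusted p = 0.919), and the 95% interval of the difference was -3.75% to 6.04%. It became -0.0091 without PON1-OE replicate 3.

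Set against each other per length, *TIMP1* transcripts were 0.665 ± 0.0270 of those of *TIMP2* in NC and 0.726 ± 0.0211 in PON1-OE. The PON1-OE libraries, at 0.702 to 0.740, did not overlap the NC libraries, at 0.634 to 0.686. With *TIMP2* at a log2FC of 0.015, the ratio restates the *TIMP1* difference, which did not pass, and is not a further result. Groups were separate for 16.1% of all single genes tested, and that share was not computed for ratios. *TIMP2* shares 198 exonic bases with *CEP295NL* on the same strand, a gene with its own row in the table, and *TIMP1* lies inside *SYN1* on the opposite strand without sharing an exon.

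None of the 3 tested proteases of the metalloproteinase family passed the test. *MMP7* had 58.0, 61.5 and 66.2 CPM in the NC replicates and 59.7, 61.3 and 57.4 CPM in the PON1-OE replicates, and the groups overlapped. Its log2FC was -0.059 (SE 0.059, edgeR adjusted p = 0.786), with a 95% interval of -11.9% to 4.60%. *MMP14*, the membrane protease that activates pro-MMP2, was at 19.4, 16.6 and 17.5 CPM in NC and 17.4, 18.3 and 18.6 CPM in PON1-OE. Here too the groups overlapped, and the log2FC was 0.021 (SE 0.090, edgeR adjusted p = 0.958), with a 95% interval of -10.9% to 15.6%. *MMP15*, a second membrane-type protease, was at 18.8, 16.4 and 17.9 CPM in NC and 17.1, 17.7 and 17.7 CPM in PON1-OE. Its PON1-OE libraries lay within the range of the NC libraries, with a log2FC of -0.015 (SE 0.089, edgeR adjusted p = 0.973) and a 95% interval of -13.0% to 12.6%. The intervals of all 3 genes stay within a fold of 1.5. The sign of *MMP14* and *MMP15* turned when single libraries were left out (-0.029 for *MMP14* without NC replicate 2, and 0.031 and 0.0059 for *MMP15* without NC replicate 1 and PON1-OE replicate 1).

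The balance of the pairs that act together was also given per length. *TIMP2* exceeded *MMP14* by a ratio of 33.5 ± 2.65 in NC and 33.3 ± 1.49 in PON1-OE, with overlapping groups. *MMP14* and *MMP15* stood at a ratio of 0.996 ± 0.0243 in NC and 1.02 ± 0.0163 in PON1-OE, also overlapping. With the longest annotated transcript as length, *MMP14* was at 4.81 CPM per kb and *MMP15* at 4.14 CPM per kb. The level of such a ratio thus depends on the length used. For *MMP2*, which was too low for the main test, the fit without a filter gave a log2FC of 0.029 with an SE of 0.64 and a 95% interval from -1.25 to 1.31 on the log2 scale.

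**Figure D3:**
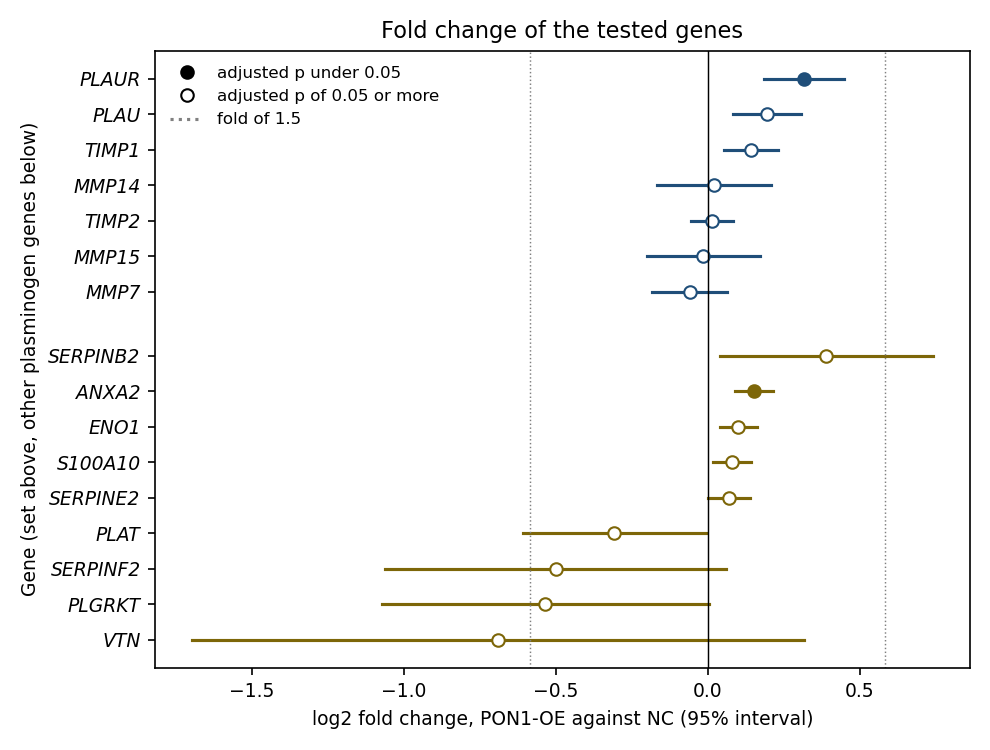
Log2FC of PON1-OE against NC with its 95% interval for the 7 tested members (blue, above) and 9 tested genes of the wider plasminogen system (brown, below), with filled points for an edgeR adjusted p under 0.05 and dotted lines at a fold of 1.5. *PLAUR* and *ANXA2* are filled, at 0.32 and 0.15, and the widest intervals belong to genes of low count such as *VTN*.

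Around *PLAU* and *PLAUR*, 16 further genes of the plasminogen system were examined and 9 had enough counts. Of these, 1 passed an edgeR adjusted p under 0.05, *ANXA2*, which was higher in PON1-OE, and none passed in the other direction. Over all genes tested, 0.677% passed. At an unadjusted edgeR p under 0.05, 4 were higher and 1 was lower in PON1-OE, against 11.1% of all genes in either direction. The groups did not overlap for 5 of the 9, against 16.1% of all genes. These were *ANXA2*, *S100A10*, *ENO1* and *SERPINE2*, with PON1-OE above, and *PLGRKT*, with PON1-OE below. The median log2FC of the 9 was 0.070, with a range from -0.69 to 0.39.

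*ANXA2*, a surface protein that binds plasminogen and tissue-type plasminogen activator, was at 2200, 2119 and 2204 CPM in NC and 2433, 2402 and 2415 CPM in PON1-OE. It rose by 11.2% (95% interval 6.49% to 16.0%), and the groups did not overlap (log2FC 0.15, SE 0.030, edgeR adjusted p = 0.0187). The adjusted p was 0.0777, 0.0594 and 0.0886 without NC replicates 1, 2 and 3, and 0.110 without PON1-OE replicate 3, so the call rests on these libraries, and it was 0.0844 with the replicate number as a block. *S100A10*, the partner of annexin A2 in its surface complex, was at 1494 ± 14.4 CPM in NC against 1581 ± 26.0 CPM in PON1-OE (log2FC 0.081, edgeR adjusted p = 0.288). *ENO1*, a glycolytic enzyme that also binds plasminogen at the cell surface, was at 2519 ± 9.90 and 2700 ± 52.5 CPM (log2FC 0.10, edgeR adjusted p = 0.151). Neither passed, although their groups did not overlap, as was so for 16.1% of all genes tested.

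In the other direction, *PLGRKT*, a transmembrane plasminogen receptor, was at 3.09, 1.94 and 2.70 CPM in NC and 1.83, 1.88 and 1.596 CPM in PON1-OE, with groups that did not overlap. Its log2FC of -0.53 (SE 0.26) had an edgeR adjusted p of 0.451 and did not pass. *PLAT*, the tissue-type activator, was at 16.5, 14.1 and 12.1 CPM in NC and 10.05, 14.9 and 9.51 CPM in PON1-OE. Its groups overlapped, and the log2FC of -0.31 had an edgeR adjusted p of 0.443. *SERPINB2*, plasminogen activator inhibitor 2, had overlapping groups as well, at 8.28 ± 1.84 CPM in NC against 10.9 ± 2.81 CPM in PON1-OE (log2FC 0.39, edgeR adjusted p = 0.390). Plasminogen itself was hardly transcribed, *PLG* having 6, 6 and 10 counts in NC and 13, 4 and 4 counts in PON1-OE. The 7 listed genes with too few counts were *PLG*, *SERPINA5*, *CPB2*, *KLKB1*, *F12*, *HRG* and *LPA*, mostly plasma proteins of hepatocytes, of which *SERPINA5* and *KLKB1* were at 0.

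The rest of the metalloproteinase family was mostly at or near 0 counts. Of 18 further MMP genes, 5 were at 0 in every library, 11 had no more than 3 counts in any library, those 5 included, and only *MMP1*, *MMP19* and *MMP24* could be tested. None of the 3 passed with edgeR, none had an unadjusted p under 0.05, and limma-voom and, for the 2 genes it gave an adjusted p, DESeq2 gave the same count of 0. *MMP24*, a membrane-type protease, was the most abundant of them at 107 ± 5.20 CPM in NC against 100 ± 6.54 CPM in PON1-OE (log2FC -0.087, edgeR adjusted p = 0.587). *MMP1*, interstitial collagenase, was at 28.4 ± 4.64 and 32.1 ± 2.43 CPM (log2FC 0.17, edgeR adjusted p = 0.528).

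Of 4 other inhibitors 3 were tested and none passed with edgeR or limma-voom. DESeq2 gave an adjusted p to 1 of the 3 only, which was not *TIMP4*. With edgeR, 1 of the 3 had an unadjusted p under 0.05. This was *TIMP4*, at 9.51, 9.67 and 8.27 CPM in NC and 13.0, 11.9 and 9.90 CPM in PON1-OE, which did not overlap (log2FC 0.34, SE 0.12, edgeR adjusted p = 0.275). Groups did not overlap for 16.1% of all genes tested. The unadjusted edgeR p of *TIMP4* was 0.0614 without NC replicate 3 and 0.0751 without PON1-OE replicate 1. Of 11 genes that activate or accompany metalloproteinases, such as the proprotein convertase *FURIN* and the surface protein *BSG*, an inducer of metalloproteinases, all were tested and none passed with edgeR, limma-voom or DESeq2, which gave 8 of the 11 an adjusted p. *FURIN* was at 71.8 ± 2.22 CPM in NC against 72.8 ± 1.29 CPM in PON1-OE, and *BSG* at 613 ± 16.7 and 618 ± 18.3 CPM. *CD44*, the hyaluronan receptor that holds MMP9 at the cell surface, was the one gene of these at an unadjusted p under 0.05, with overlapping groups at 283 ± 12.5 and 303 ± 13.8 CPM (log2FC 0.10, edgeR adjusted p = 0.366).

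**Figure D4:**
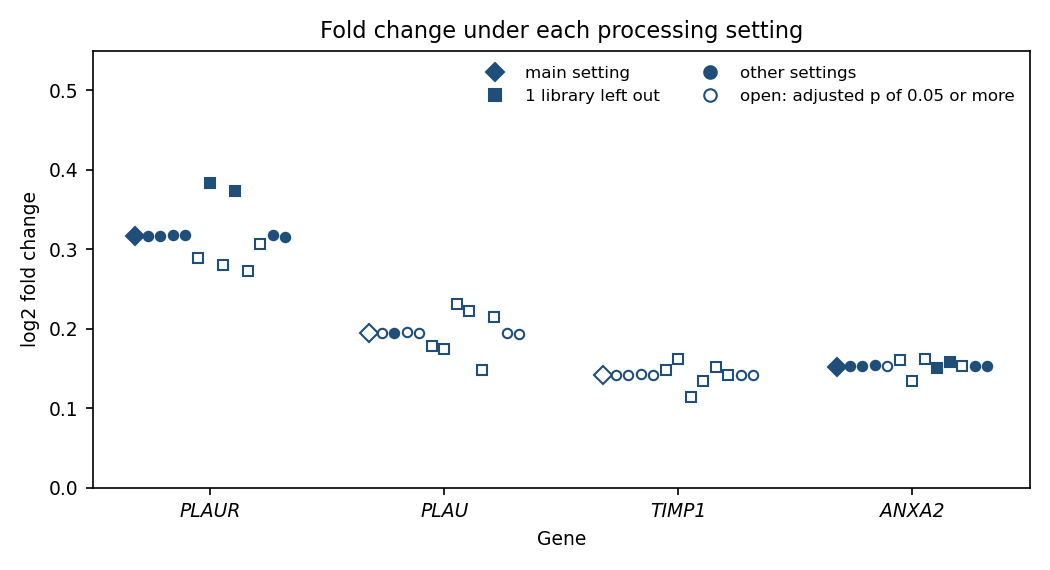
Log2FC of 4 genes under the main setting (diamonds), with 1 library left out (squares) and under the other settings (circles), filled where the adjusted p was under 0.05. All values are above 0, *PLAUR* lies between 0.27 and 0.38, *PLAU* is filled under 1 setting and *TIMP1* under none.

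Across the 6 libraries, some genes outside the set varied almost in parallel with a member. Among 8800 genes of at least 10 CPM, the gene with the highest Pearson correlation of log2 levels was *F11R* for *PLAUR* (r = 0.992), *DHRS4* for *PLAU* (r = 0.988) and *MYO5B* for *TIMP1* (r = 0.997). For the genes whose groups overlapped it was *MRPS10* for *TIMP2* (r = 0.987), *UQCC4* for *MMP7* (r = 0.974), *MAPK7* for *MMP14* (r = 0.992) and *UBAC2* for *MMP15* (r = 0.995). With only 6 libraries, such values were frequent: 165 genes exceeded r = 0.9 with *PLAUR*, 159 with *TIMP1* and 123 with *PLAU*. With the other tested members, 26 to 54 genes did. *PLAUR*, *TIMP1* and *PLAU* are also the members whose groups did not overlap. The part that the difference between NC and PON1-OE has in these counts was not tested.

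In the GENCODE v29 annotation on GRCh38, used here for lengths and positions, *PLAUR* (ENSG00000011422) lies at chr19:43646095-43670547 and *MMP7* (ENSG00000137673) at chr11:102520508-102530753, both on the minus strand. *PLAU* (ENSG00000122861) is at chr10:73909177-73917497, *MMP14* (ENSG00000157227) at chr14:22836557-22849027 and *MMP15* (ENSG00000102996) at chr16:58025566-58046901, on the plus strand. *MMP2* (ENSG00000087245) is on the same chromosome and strand as *MMP15*, at chr16:55389700-55506691. *TIMP1* (ENSG00000102265) is at chrX:47582313-47586789 on the plus strand and *TIMP2* (ENSG00000035862) at chr17:78852977-78925387 on the minus strand. *MMP9* (ENSG00000100985), at chr20:46008908-46016561 on the plus strand, shares 430 exonic bases with the antisense gene *SLC12A5-AS1*.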

How the data were processed

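Poly(A) RNA of the 6 libraries was sequenced on an Illumina instrument. The authors deposited 1 table of estimated counts per gene, not normalized, in which 10.5% of values were not whole. The submitters' processing notes name Bowtie2 2.2.8, HISAT2, StringTie 1.3.1 and DESeq2 without their roles. The genome build and annotation are not given in the sources used here. Columns were assigned to libraries by name.

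The estimated counts were rounded and tested with edgeR 4.0.16 in R 4.3.3 (filterByExpr, TMM, glmQLFit and glmQLFTest), PON1-OE against NC without covariates, with Benjamini-Hochberg adjustment over 11958 genes. The test had been planned for raw whole-number counts, so rounding was added. DESeq2 1.42.0, limma 3.58.1 (voom), RLE scaling, other filters, a replicate block and leaving out each library were alternatives. Permutation tests and correlations used log2(CPM + 0.5). Exon lengths and positions came from GENCODE v29, in which 20126 identifiers were found. Ratios were taken per library. The fit was tested on simulated data, where it recovered 30.9% of 55 genes changed by 0.2 and 64.4% of 45 genes changed by 0.4 on the log2 scale.

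Within a group, no pair of libraries was as alike as sampling noise alone would make it (chi-square per degree of freedom 2.11 to 4.11). The members and the gene lists were chosen with earlier results of these data known. Genes named are the members, list genes with an adjusted p under 0.05, the list gene with the lowest p per list, and the gene most like each member. Others were chosen after their values were seen. A gene of the lists is not reported here and is left out of its list's counts.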

Additional observations from a re-analysis of the deposited data

How the results depend on the processing

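The log2FC of *PLAUR*, *PLAU*, *TIMP1* and *ANXA2* stayed above 0 under every alternative run. Over all genes, the 81 calls with an adjusted p under 0.05 became 177 without the filter on low counts, 40 with the replicate block, and 11 (without NC replicate 3) to 103 (without PON1-OE replicate 2) with 1 library left out. DESeq2 called 121 and limma-voom 65. Among the members, the 1 call became 2 without the filter (*PLAU* added, adjusted p = 0.0441), and 0 to 1 with 1 library left out. Among the other plasminogen genes, the 1 call became 0 with the replicate block, where *ANXA2* had an adjusted p of 0.0844, 0 to 1 with 1 library left out, and 2 with DESeq2, which added *ENO1*. No AP-1 or ETS factor was called, and 0 to 1 were with 1 library left out (*ETS1*, without PON1-OE replicate 2). The adjusted p of *PLAUR* ran from 0.000259 to 0.194 over the alternatives, and that of *TIMP1* from 0.113 to 0.564. The log2FC turned sign for *TIMP2* (-0.0091 to 0.040 with 1 library left out), *MMP14* (-0.029 to 0.084) and *MMP15* (-0.068 to 0.031, and 0.0059 without PON1-OE replicate 1). The cause of these shifts was not tested.

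The replicate numbers did not pair the samples: the deviations of same-numbered libraries from their group means correlated at 0.017, -0.023 and 0.020, and no library correlated best with its own number. With the replicate block, *PLAUR* kept its call. DESeq2 gave no adjusted p to *MMP14*, *MMP15*, *TIMP4*, *TMPRSS2*, *PLAT*, *SERPINB2* and *PLGRKT*, among others. The simulated recovery of small changes, given with the processing, pooled genes of all levels and drew their noise from a trend over all genes. It therefore gives no recovery for a single member, and a missed threshold does not show that a gene was unchanged.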

Other observations

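Of 16 AP-1 and ETS transcription factors, families known to bind promoters of these protease genes, all were tested and none passed an edgeR adjusted p under 0.05, and 5 had an unadjusted p under 0.05, a mark that 11.1% of all genes tested reached. *ETV5* (101 ± 4.15 CPM in NC against 112 ± 1.56 CPM in PON1-OE, edgeR adjusted p = 0.180), *ETS1* and *FOSL1* were higher in PON1-OE, and *ELF3* and *EHF* were lower. *FOSL1* was at 253 ± 6.46 CPM in NC against 271 ± 5.72 CPM in PON1-OE, with groups that did not overlap, as for 16.1% of all genes tested.

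Of 17 matrix genes that these proteases act on, 7 were tested and none passed with edgeR, limma-voom or DESeq2, which gave 4 of the 7 an adjusted p, with 2 at an unadjusted p under 0.05. All 7 log2FC were above 0, with a median of 0.10, and so were 5863 of all 11958 tested. *FN1*, which encodes fibronectin, was at 2268 ± 128 CPM in NC against 2439 ± 92.8 CPM in PON1-OE (edgeR adjusted p = 0.275). *COL4A1* was listed at 0 in all 6 libraries, whereas *COL4A2*, which encodes the chain it pairs with in type IV collagen, had 76 to 98 counts. A 0 in this table may be a gene that was not counted, and for *COL4A1* or *MMP9* the table alone cannot tell this from no transcript.

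Of 7 ADAM sheddases, surface proteases that release membrane proteins, 5 were tested and none passed with edgeR, limma-voom or DESeq2, which gave 4 of the 5 an adjusted p. Of the 5, 4 had a log2FC below 0, as had 6095 of all 11958 genes tested. *ADAM10* was the one with an unadjusted p under 0.05, at 64.7, 68.7 and 65.1 CPM in NC and 62.9, 50.8 and 58.2 CPM in PON1-OE, which did not overlap (log2FC -0.21, SE 0.066, edgeR adjusted p = 0.211). Groups did not overlap for 16.1% of all genes tested. Of 10 membrane serine proteases and their inhibitors, 5 were tested and none passed with edgeR or limma-voom, while DESeq2 gave none of the 5 an adjusted p. Of the 5, 4 had a log2FC below 0, where 6095 of all 11958 genes tested did. *TMPRSS2*, at 4.05 ± 0.622 CPM in NC against 2.997 ± 0.442 CPM in PON1-OE, was the one with an unadjusted p under 0.05 (log2FC -0.43, edgeR adjusted p = 0.437).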
